A study of Mus musculus with 12 samples.

Results

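This report covers 9 epithelial genes of KPC cells, a mouse pancreatic cancer line: the cadherins Cdh1 and Cdh17, the surface adhesion gene Epcam, the claudin Cldn4 and the keratins Krt7, Krt8, Krt18, Krt19 and Krt20. They were chosen by symbol, and all 9 were found among the 17340 genes listed. RNA-seq was done on cells exposed to JQ1, I-BET151 or ITF2357, each at 1 µM for 48 h, and on a control. Each of the 4 groups held 3 libraries, 12 in all. JQ1 and I-BET151 are BET bromodomain inhibitors of different chemical classes, a thienotriazolodiazepine and a dimethylisoxazole-bearing quinoline, and ITF2357 (givinostat) is a hydroxamate inhibitor of histone deacetylases. The control was described in the labels both as untreated and as given PBS, and no source names a solvent for the compounds. The strain was labelled C57BL/6. The labels name no alleles of the line, no driver and no number of clones. All 4 groups were of this 1 line, and the labels do not say that replicate libraries had separate cultures as their source, so the p-values cover the spread among these libraries, which may be technical.

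Epithelial cells are held together by layers of junctions. E-cadherin, the product of Cdh1, binds its like on the next cell and is tied to actin by catenins, claudins seal the tight junctions above, and EpCAM adds a weaker adhesion. Inside the cell, keratin filaments are built from pairs of 1 acidic type I chain and 1 basic type II chain, and they end on desmosomes. Pancreatic duct cells and most ductal tumours carry the simple-epithelium keratins, and repressors of the SNAI and ZEB families bind E-boxes in genes such as Cdh1 during the epithelial-mesenchymal transition.

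The libraries held between 21.02 M and 31.2 M counts. The filter on low counts removed 0 genes, so all 9 members were tested. Values are CPM, counts per M counts of a library, scaled with TMM factors, shown for replicates 1, 2 and 3 in that order where 3 are given, with SD over n = 3 libraries. Fold changes are log2 values with their standard errors (SE) from edgeR's quasi-likelihood test over all libraries, and calls were made at p under 0.05 after Benjamini-Hochberg adjustment across the 17340 genes. All 8 ductal markers of a fixed list, Krt7 and Krt19 among them, were in the table, with a summed level of 4574 to 4618 CPM in control libraries, 5337 to 5391 for JQ1, 5349 to 5372 for I-BET151 and 5017 to 5039.9 for ITF2357. These sums hide opposite moves. Spp1 was at 2499 CPM in control, 3057 for JQ1, 1033 for I-BET151 and 1599 for ITF2357. Cftr was near the floor, at 0.604 CPM in control, 0.396 for JQ1, 0.087 for I-BET151 and 0.335 for ITF2357. With I-BET151 Muc1 went from 70.3 to 755 CPM and Onecut2 from 1211 to 2105 CPM. In that comparison 6 of the 8 were called higher and 2 lower, beside 30.5% and 32.6% of all genes. Of 10 fibroblast markers 4 were listed, with summed levels of 23.1 to 24.5 CPM in control, 23.6 to 29.7 with JQ1, 7.77 to 9.37 with I-BET151 and 20.9 to 24.1 with ITF2357. The ITF2357 sum also hides opposite moves. Pdgfra went from 6.13 CPM in control to 9.65, Col1a1 from 14.6 to 11.3, Pdgfrb from 1.64 to 0.495 and Acta2 from 1.58 to 0.793. Col1a2, Col3a1, Dcn, Lum, Fap and Postn were not among the genes listed. Of 8 leukocyte markers only Cd68 was listed, at 6.61 to 7.69 CPM in control, up to 8.11 CPM under the BET inhibitors and 4.15 to 4.67 CPM with ITF2357, and Ptprc was not. The 2 of 5 endothelial markers listed summed to 3.86 to 4.37 CPM in control, 3.28 to 3.79 for JQ1, 0.844 to 0.971 for I-BET151 and 0.951 to 1.45 for ITF2357. The 1 of 7 acinar markers listed was at 3.86 to 4.55 CPM in control, 4.43 to 5.83 for JQ1, 0.276 to 0.633 for I-BET151 and 5.94 to 7.04 for ITF2357. For 2 of 6 basal markers the sums were 0.706 to 1.55 CPM in control, 1.64 to 2.03 for JQ1, 0.194 to 0.368 for I-BET151 and 3.22 to 3.90 for ITF2357. The higher ITF2357 sum was that of Krt14, from 0.576 CPM in control to 2.94, while Trp63 went from 0.605 to 0.545 CPM. The part of these markers in the results was not tested. These are bulk samples, so a change in the share of cells that carry a transcript and a change in its amount per cell cannot be told apart.

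The promoters of the 4 keratin genes for which the sequence table has an entry are shown first, because the members differ in them by the E-box CACCTG, the letters bound by SNAI and ZEB repressors. Each window runs 5′ to 3′ on the gene's strand from 250 bases before to 50 bases after the gene start in RefSeq (GRCm38.p6), with the start base as position 1. Capitals mark matches on either strand to CACCTG, to the GC box GGGCGG, to the AP-1 motif TGANTCA or to the TATA box TATAAA. Krt7 is at chr15:101412153-101412452 on the plus strand, Krt8 at chr15:102004293-102004592 on the minus strand, Krt18 at chr15:102027966-102028265 on the plus strand and Krt20 at chr11:99438104-99438403 on the minus strand.
Krt7: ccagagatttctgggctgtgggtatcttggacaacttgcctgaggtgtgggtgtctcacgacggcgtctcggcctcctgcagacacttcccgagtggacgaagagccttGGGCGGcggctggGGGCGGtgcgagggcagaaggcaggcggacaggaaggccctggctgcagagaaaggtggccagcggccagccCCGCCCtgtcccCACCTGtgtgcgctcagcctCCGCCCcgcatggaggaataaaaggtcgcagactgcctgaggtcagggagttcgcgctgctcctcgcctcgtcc
Krt8: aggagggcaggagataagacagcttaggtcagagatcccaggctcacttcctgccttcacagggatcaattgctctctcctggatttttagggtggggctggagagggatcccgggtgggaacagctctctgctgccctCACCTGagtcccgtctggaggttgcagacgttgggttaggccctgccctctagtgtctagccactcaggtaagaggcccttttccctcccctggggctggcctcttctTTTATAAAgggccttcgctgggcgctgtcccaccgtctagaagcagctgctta
Krt18: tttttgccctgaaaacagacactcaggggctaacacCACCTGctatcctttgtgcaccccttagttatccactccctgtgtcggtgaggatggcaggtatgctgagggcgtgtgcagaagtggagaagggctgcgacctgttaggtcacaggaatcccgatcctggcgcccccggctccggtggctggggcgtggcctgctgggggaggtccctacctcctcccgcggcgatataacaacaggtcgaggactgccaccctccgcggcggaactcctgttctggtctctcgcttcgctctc
Krt20: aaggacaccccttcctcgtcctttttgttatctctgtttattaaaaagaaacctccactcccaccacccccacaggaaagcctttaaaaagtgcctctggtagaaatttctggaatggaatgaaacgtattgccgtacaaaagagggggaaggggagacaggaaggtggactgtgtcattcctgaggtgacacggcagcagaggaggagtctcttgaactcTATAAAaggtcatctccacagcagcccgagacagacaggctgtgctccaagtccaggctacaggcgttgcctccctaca

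The Krt7 window held 1 E-box, first base at position -44, and 4 GC boxes. In Krt8 the E-box was at -111, and TATAAA matched on both strands of 1 overlapping stretch at the gene start. The E-box of Krt18 was at -214, and this window held no GC box. Krt20 held no E-box and a TATA box at -29. Epcam and Cldn4, whose windows were searched but are not printed, each held 2 E-boxes, and Cldn4 also held 2 AP-1 motifs. The promoter table gave no window for Cdh1, Cdh17 and Krt19. Of all 32851 promoters given there, 20.2% held CACCTG, 35.7% GGGCGG, 7.81% TGANTCA and 13.6% TATAAA. Of the 13640 promoters of genes measured here, the shares were 18.2%, 60.5%, 5.67% and 7.60% in that order. The letters AACCNG, part of the Grainyhead-like site, matched none of the 6 windows, 39.4% of all promoters and 41.8% of those of measured genes. A match is a description of letters and no evidence of binding. The RefSeq start lay 1360 bases inside the GENCODE gene for Krt7, 140 for Krt8 and 36 for Krt18.

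With ITF2357, 8 of the 9 genes rose and none fell. I-BET151 raised 5, lowered 1 and left 3 not called (4, 2 and 3 with library totals as the scale), and JQ1 raised 4, lowered 2 and left 3 not called. Among all genes, 54.0% were called with ITF2357, 27.6% higher and 26.4% lower. The shares with I-BET151 were 63.1% called, 30.5% higher and 32.6% lower (21.1% and 42.9% with library totals), and with JQ1 24.8% called, 12.5% higher and 12.3% lower. Cdh1, Krt7, Krt19 and Krt20 rose with all 3 compounds, as did 6.70% of all genes, and these comparisons share the control libraries. Changes of at least 2-fold were called for none of the 9 with JQ1, for Cdh17, Krt19 and Krt20 with I-BET151 and for Krt20 with ITF2357, beside 0.606%, 15.7% and 8.66% of all genes. With library totals as the scale, Krt19 (1.85-fold) and Krt20 (1.91-fold) fell under this mark with I-BET151, and only Cdh17 passed it. The libraries did not overlap control for 7, 7 and 8 of the members, beside 38.9%, 67.5% and 58.1% of all genes. The median log2 fold change of the members was 0.20 (JQ1), 0.36 (I-BET151) and 0.74 (ITF2357), beside medians of 0.00, -0.03 and -0.01 over all genes.

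**Figure D1:**
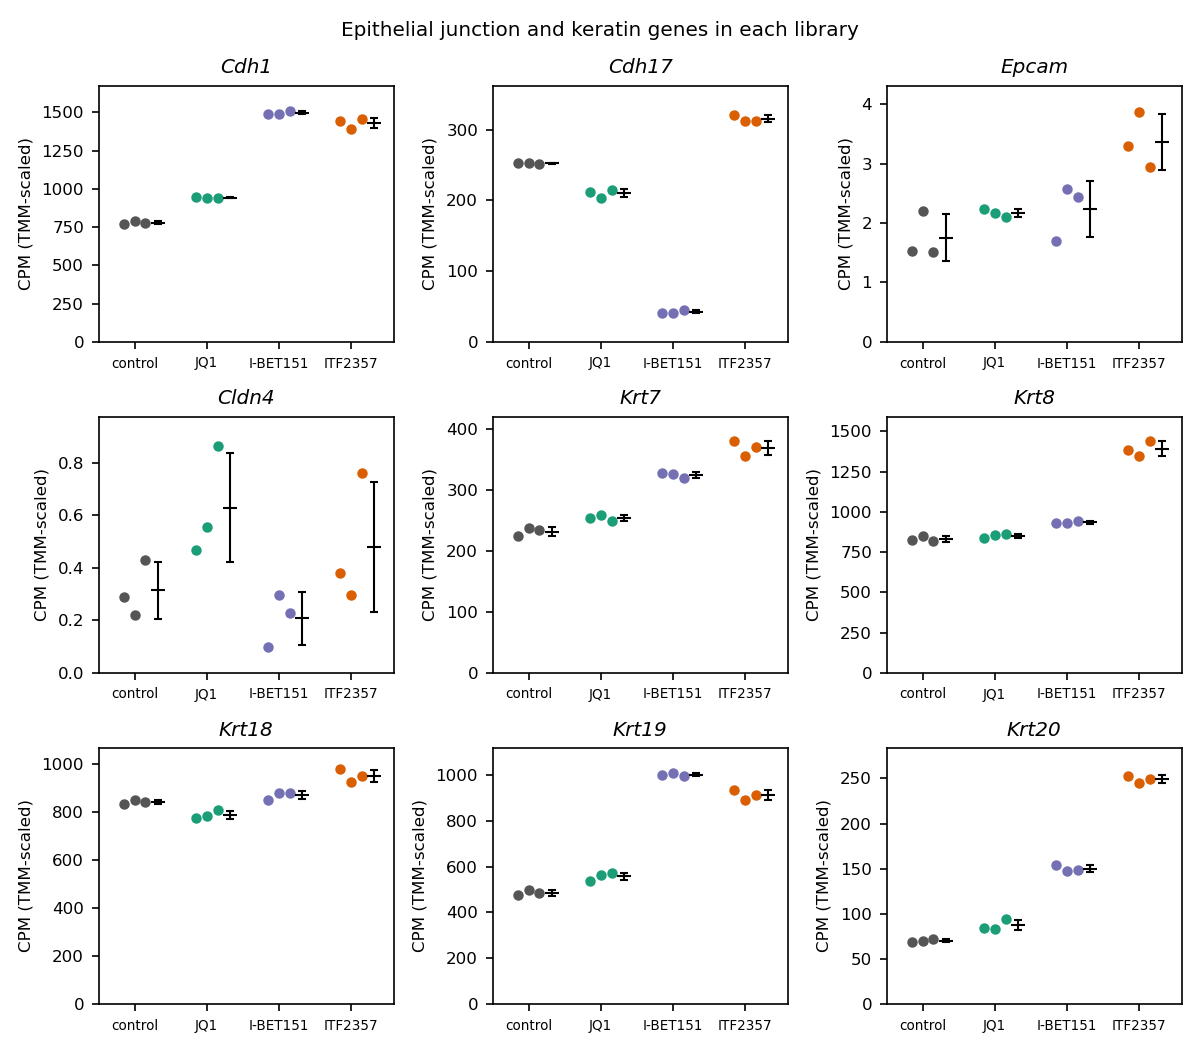
Level of each gene in each of the 12 libraries (TMM-scaled CPM, linear axes from 0), 1 panel a gene, with the group mean and SD over 3 libraries beside the points. Cdh17 sits near 42.3 CPM with I-BET151 and above 200 CPM in the other groups, while Krt20 is highest with ITF2357, near 249.2 CPM.

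Cdh1, E-cadherin, the cadherin of epithelial adherens junctions, is at chr8:106603351-106670246 on the plus strand (mm10). Its level was 772, 789 and 780.4 CPM in control libraries and 948, 942 and 939 CPM with JQ1. It was 1492, 1492 and 1512 CPM with I-BET151 and 1443, 1393 and 1457 CPM with ITF2357. The 4 groups did not overlap: control was lowest, JQ1 next, and ITF2357 lay just under I-BET151. Against control, Cdh1 rose by a log2 fold change of 0.27 ± 0.02 (SE) with JQ1 (edgeR adjusted p = 2.32e-12), 0.94 ± 0.02 with I-BET151 (edgeR adjusted p = 1.06e-28) and 0.87 ± 0.02 with ITF2357 (edgeR adjusted p = 2.66e-27). It stood 1.59-fold higher with I-BET151 than with JQ1. The gap between ITF2357 and I-BET151 was -0.07 ± 0.02 (edgeR adjusted p = 0.0049), and it turned to 0.07 (edgeR adjusted p = 0.00343) when libraries were scaled by their totals alone.

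Cdh17, LI-cadherin, a cadherin of liver and intestine that lacks the catenin-binding tail of Cdh1, is at chr4:11758147-11817895 on the plus strand. Like Krt18, it was called in both directions, and its changes were larger. Control libraries held 253, 254 and 251 CPM, JQ1 libraries 211, 204 and 215 CPM, I-BET151 libraries 41.02, 41.2 and 44.8 CPM, and ITF2357 libraries 321, 313 and 312 CPM. No group overlapped another, and I-BET151 stood far below the rest. Cdh17 fell by 2.58 ± 0.03 (SE) on the log2 scale with I-BET151 (edgeR adjusted p = 6.82e-35), to 5.97-fold under control, a change with 2.16% of all genes below it. With JQ1 it fell by 0.26 ± 0.03 (edgeR adjusted p = 5.59e-09), and with ITF2357 it rose by 0.32 ± 0.03 (edgeR adjusted p = 6.01e-12). Its level was thus 4.97-fold higher with JQ1 than with the other BET inhibitor and 7.45-fold higher with ITF2357 than with I-BET151. In the I-BET151 libraries Cdh1 rose while Cdh17 fell.

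Epcam, a homophilic adhesion protein and a common epithelial surface marker, is at chr17:87635979-87651129 on the plus strand. It was near the floor of these libraries, with 35 to 104 counts each. Its level was 1.54, 2.21 and 1.51 CPM in control, 2.24, 2.17 and 2.10 CPM with JQ1, 1.70, 2.58 and 2.44 CPM with I-BET151 and 3.30, 3.86 and 2.94 CPM with ITF2357. Only the ITF2357 libraries all lay above every control library, while JQ1 and I-BET151 overlapped control. Epcam rose by 0.93 ± 0.20 (SE) with ITF2357 (edgeR adjusted p = 0.000192). Its values were 0.31 ± 0.22 with JQ1 (edgeR adjusted p = 0.334) and 0.36 ± 0.22 with I-BET151 (edgeR adjusted p = 0.152), with 95% intervals from -0.11 to 0.74 and from -0.07 to 0.79. Without control replicate 2, which was the highest of its group, the I-BET151 value was 0.56 (edgeR adjusted p = 0.0488).

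Cldn4, a sealing claudin of simple epithelia, is at chr5:134945119-134946934 on the minus strand. Its counts were 7, 5 and 10 in control libraries, 14, 12 and 23 with JQ1, 2, 7 and 5 with I-BET151 and 12, 7 and 23 with ITF2357, of over 21 M in each. At this depth no difference from control was detectable for I-BET151 (-0.57 ± 0.58 SE) or ITF2357 (0.62 ± 0.48 SE), whose libraries overlapped control. The JQ1 libraries lay above control, with a log2 difference of 0.98 ± 0.47 (SE) that did not pass the test (edgeR adjusted p = 0.133). Between compounds, Cldn4 was called higher with JQ1 than with I-BET151 (1.55 ± 0.51 SE, edgeR adjusted p = 0.00925). That call was lost without JQ1 replicate 3 (adjusted p = 0.0678) or without I-BET151 replicate 1 (adjusted p = 0.0555). ITF2357 exceeded I-BET151 by 1.19 ± 0.52 (edgeR adjusted p = 0.0483), and DESeq2 gave an adjusted p of 0.0833. Leaving out I-BET151 replicate 1 or 3 moved that p to 0.184 or 0.0823, and leaving out ITF2357 replicate 3 moved it to 0.324.

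The 5 keratins ranged from the most abundant transcript of the set to moderate levels. Per length, as RPKM with the deposited gene length, the control order was Krt18 at 585 ± 6.0 (SD), Krt8 at 425 ± 9.2, Krt19 at 262 ± 7.1, Cdh1 at 171 ± 1.8, Cdh17 at 56.5 ± 0.23, Krt20 at 36.5 ± 0.85, Krt7 at 32.9 ± 0.95, Epcam at 0.799 ± 0.18 and Cldn4 at 0.173 ± 0.059. Neighbours in this order were separated by more than their SD, and the closest pair by ratio was Krt20 and Krt7. The place of Krt7 depends on its length: the deposited 7049 bases join exons of 5 transcripts, and with the 4094 bases of the longest coding transcript its control level was 56.7 RPKM, above Krt20. With I-BET151 the order became Krt18, Krt19, Krt8, and with the longest coding transcripts Krt19 (636 RPKM) stood above Krt18 (605 RPKM). With ITF2357 Krt8 led at 710.4 ± 24 RPKM, ahead of Krt18 at 659.9 ± 19 RPKM, and the libraries of these 2 keratins did not overlap.

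Krt7 and Krt8 encode type II keratins. Krt7, a keratin of ducts and glands at chr15:101411043-101430313 on the plus strand, was at 224, 237 and 234 CPM in control, 255, 259 and 249.9 CPM with JQ1, 328, 326 and 319.6 CPM with I-BET151 and 379.8, 356 and 371 CPM with ITF2357. The groups stood in that order without overlap. Krt7 rose by 0.13 ± 0.03 (SE) with JQ1 (edgeR adjusted p = 0.000389), by 0.49 ± 0.03 with I-BET151 (edgeR adjusted p = 7.61e-17) and by 0.67 ± 0.03 with ITF2357 (edgeR adjusted p = 1.53e-20). An antisense gene inside it, Gm671, held at most 0.616% of the counts of Krt7, and no source says whether reads were counted by strand.

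Krt8, the type II partner of Krt18 in simple epithelia, is at chr15:101996698-102004482 on the minus strand. Its level was 824, 852 and 818 CPM in control, 836, 856 and 859 CPM with JQ1, 929, 930.5 and 943 CPM with I-BET151 and 1386, 1347 and 1439.5 CPM with ITF2357. JQ1 overlapped control, I-BET151 lay above both, and ITF2357 was highest. Krt8 rose by 0.74 ± 0.02 (SE) with ITF2357 (edgeR adjusted p = 5.13e-24). The rise with I-BET151 was 0.17 ± 0.02 (edgeR adjusted p = 1.00e-07), and it was 0.01 (edgeR adjusted p = 0.785) with library totals as the scale. With JQ1 the value was 0.03 ± 0.02 (edgeR adjusted p = 0.353), with a 95% interval from -0.01 to 0.08. A processed copy, Krt8-ps, held at most 0.424% of the counts of Krt8. No source says how reads that match both were counted, so the share of such reads is not known.

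Krt18, Krt19 and Krt20 encode type I keratins. Krt18, the partner of Krt8, lies at chr15:102028180-102032027 on the plus strand. Its start and that of Krt8 are 23698 bases apart and the genes point away from each other, so it is a type I gene beside the type II cluster. Krt18 was at 831, 848 and 842 CPM in control, 775, 781 and 807 CPM with JQ1, 850.0, 878 and 879 CPM with I-BET151 and 976, 922 and 947 CPM with ITF2357. JQ1 lay wholly below control and ITF2357 wholly above, and all groups were close. Krt18 fell by 0.09 ± 0.02 (SE) with JQ1 (edgeR adjusted p = 0.00226) and rose by 0.17 ± 0.02 with ITF2357 (edgeR adjusted p = 6.35e-08). With I-BET151 the value was 0.05 ± 0.02 (edgeR adjusted p = 0.0684). That value has no settled direction: it passed with RLE size factors (0.06, adjusted p = 0.0327), in DESeq2 (0.06, adjusted p = 0.0293), in a fit of these 2 groups alone (0.05, adjusted p = 0.0133) and without I-BET151 replicate 1 (0.07, adjusted p = 0.0252), and it was -0.11 (adjusted p = 4.78e-05) with library totals as the scale.

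Krt19, the smallest keratin and a duct marker, is at chr11:100140810-100148665 on the minus strand. It was at 474, 500.2 and 484 CPM in control, 539, 563 and 571 CPM with JQ1, 1001, 1009 and 998 CPM with I-BET151 and 934, 894 and 912 CPM with ITF2357. JQ1 lay slightly above control, and the other compounds stood far above both, with no overlap between any groups. Krt19 rose by 0.20 ± 0.02 (SE) with JQ1 (edgeR adjusted p = 1.00e-07), by 1.04 ± 0.02 with I-BET151 (edgeR adjusted p = 6.54e-28) and by 0.91 ± 0.02 with ITF2357 (edgeR adjusted p = 7.06e-26). Its fold over control with I-BET151 was 2.06, and 1.85 with library totals as the scale.

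Krt20, a keratin of intestinal and gastric epithelium, is on the same chromosome at chr11:99428403-99438150 on the minus strand. Its libraries held 69.0, 69.8 and 72.2 CPM in control, 84.2, 83.5 and 93.7 CPM with JQ1, 154, 147 and 148 CPM with I-BET151 and 253, 244.5 and 249.95 CPM with ITF2357. No group overlapped another, and ITF2357 was highest in every library. Krt20 rose by 0.31 ± 0.04 (SE) with JQ1 (edgeR adjusted p = 1.36e-07), by 1.09 ± 0.04 with I-BET151 (edgeR adjusted p = 5.11e-23) and by 1.83 ± 0.04 with ITF2357 (edgeR adjusted p = 2.84e-29). The rise with ITF2357 was 3.55-fold, and 98.9% of all genes had a lower log2 fold change in that comparison. It was the only member changed at least 2-fold by ITF2357.

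**Figure D2:**
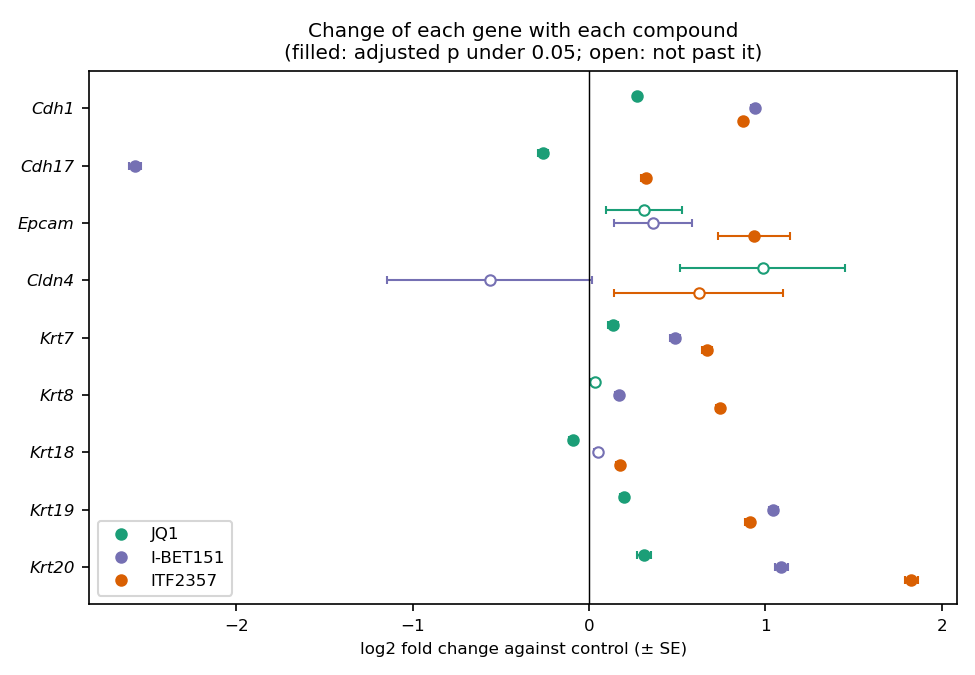
Log2 fold change of each gene against control with its standard error from edgeR's fit over 12 libraries, 1 colour a compound; filled points passed an adjusted p of 0.05 and open points did not. ITF2357 points lie right of 0 for all 9 genes, Cdh17 with I-BET151 lies at -2.58, and the small I-BET151 value of Krt18 changes sign with library totals as the scale.

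JQ1 and I-BET151 share a target family, and at the matched dose and time they differed for 8 of the 9 genes, beside 60.4% of all genes called, 30.7% higher and 29.8% lower. With library totals as the scale 41.96% of all genes were higher and 18.96% lower, and 6 members were called, 2 higher and 4 lower. The libraries of the pair did not overlap for 8 members, beside 65.6% of all genes. Cdh1, Krt7, Krt8, Krt18, Krt19 and Krt20 were lower with JQ1 than with I-BET151, and Cdh17 and Cldn4 were higher. The log2 differences of JQ1 from I-BET151 were -0.85 ± 0.02 (SE) for Krt19, -0.78 ± 0.04 for Krt20, -0.67 ± 0.02 for Cdh1 and -0.35 ± 0.03 for Krt7. For Krt8 and Krt18 they were -0.14 ± 0.02 each, and these became 0.02 and 0.01, not called, with library totals as the scale. For Epcam the difference was -0.05 ± 0.21 (edgeR adjusted p = 0.856), with a 95% interval from -0.46 to 0.36 that allows a difference of either sign. In this interval the sign itself turned with library totals (0.10) and without I-BET151 replicate 2 (0.06) or 3 (0.01).

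ITF2357 differed from JQ1 in 8 of the 9 genes, all higher, beside 48.6% of all genes called, 25.4% higher and 23.2% lower. Libraries of both groups were apart for 8 members, beside 53.7% of all genes. The log2 differences were 1.52 ± 0.04 (SE) for Krt20, 0.71 ± 0.02 for both Krt8 and Krt19, 0.60 ± 0.02 for Cdh1, 0.58 ± 0.03 for Cdh17 and 0.54 ± 0.03 for Krt7. Krt18 differed by 0.27 ± 0.02 and Epcam by 0.62 ± 0.19 (edgeR adjusted p = 0.00757). Cldn4 was not called (-0.36 ± 0.42, edgeR adjusted p = 0.505). Against I-BET151, ITF2357 gave 7 higher and 2 lower, beside 62.8% of all genes called, 31.9% higher and 30.9% lower. With library totals as the scale 40.9% were higher and 21.5% lower, and 8 members were higher and none lower. Libraries were apart for all 9, beside 64.6% of all genes. Higher were Cdh17 (2.897 ± 0.034), Cldn4, Krt20 (0.74 ± 0.03), Krt8 (0.57 ± 0.02), Epcam (0.57 ± 0.20, edgeR adjusted p = 0.0117), Krt7 (0.18 ± 0.03) and Krt18 (0.13 ± 0.02). Krt19 was lower by this test (-0.13 ± 0.02, edgeR adjusted p = 8.45e-06), as was Cdh1, and with library totals the Krt19 difference was 0.00 and not called. The Epcam call was lost without I-BET151 replicate 1 (adjusted p = 0.0883) or without ITF2357 replicate 2 (adjusted p = 0.0569). The 3 pairs of compounds were tested in the same fit, each with p-values adjusted over all 17340 genes.

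The keratins changed by different amounts, and their mix differed between groups. Their summed level was 2460.2 ± 43 (SD) CPM in control, 2537 ± 46 for JQ1, 3281 ± 16 for I-BET151 and 3871 ± 93 for ITF2357. Of the summed keratin RPKM, Krt18 made up 43.6 ± 0.33% in control, 40.2 ± 0.30% for JQ1, 34.6 ± 0.41% for I-BET151 and 32.3 ± 0.43% for ITF2357. Krt8 made up 31.7 ± 0.32%, 31.8 ± 0.27%, 27.3 ± 0.19% and 34.7 ± 0.74% in the same order. With ITF2357 the shares of the 2 partners thus moved in opposite directions. With JQ1 only that of Krt18 fell, and with I-BET151 both fell. Krt19 went from 19.5 ± 0.21% in control to 31.0 ± 0.24% with I-BET151, and Krt20 from 2.72 ± 0.08% to 6.33 ± 0.05% with ITF2357. Krt7 made up 2.45 ± 0.04% in control and 2.65 ± 0.09%, 2.64 ± 0.05% and 2.56 ± 0.03% with the compounds in the same order. With the longest coding transcripts the share of Krt7 was 4.01 ± 0.07% in control, and Krt19 went from 21.9 ± 0.22% to 33.9 ± 0.24% with I-BET151.

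**Figure D3:**
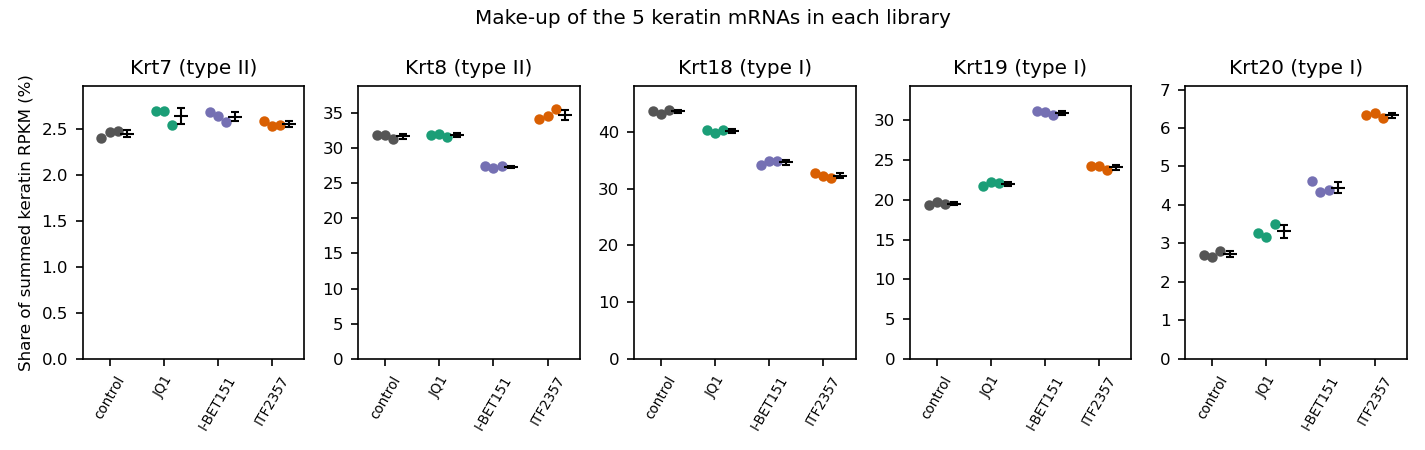
Share of each keratin in the summed RPKM of the 5 keratins (%, axes from 0), 1 panel a gene, with a point for each library and the group mean and SD beside them. The share of Krt18 is highest in control, that of Krt19 with I-BET151 and those of Krt8 and Krt20 with ITF2357.

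Within-library ratios do not depend on how libraries are scaled, so 3 of them were compared with control. Krt19 held 29.7 ± 0.38% (SD) of the type I keratin RPKM in control, 33.6 ± 0.43% for JQ1, 44.2 ± 0.34% for I-BET151 and 38.4 ± 0.10% for ITF2357, with no overlap between groups. The log2 ratio of type II (Krt7, Krt8) to type I (Krt18, Krt19, Krt20) keratins was -0.95 ± 0.02 in control, -0.93 ± 0.02 for JQ1, -1.22 ± 0.01 for I-BET151 and -0.75 ± 0.04 for ITF2357. So the mRNA balance moved to type I keratins in I-BET151 libraries and to type II keratins in ITF2357 libraries, while JQ1 overlapped control. Protein was not measured. Cdh2, N-cadherin, the cadherin of mesenchymal and neural cells, was at 106 ± 3.6 CPM in control and also rose, by 0.15 ± 0.03 (SE) with JQ1, 0.22 ± 0.03 with I-BET151, a value that library totals as the scale lower by 0.16, and 0.18 ± 0.03 with ITF2357. The log2 ratio of Cdh1 to Cdh2 RPKM was 3.70 ± 0.06 (SD) in control, 3.82 ± 0.05 for JQ1, 4.42 ± 0.01 for I-BET151 and 4.40 ± 0.04 for ITF2357. As a plain ratio, Cdh1 stood 13.0-fold over Cdh2 in control and 21.4-fold with I-BET151. With 3 libraries against 3 the exact two-sided permutation test cannot go below p = 0.1, and it gave this smallest value for 8 of the 9 ratio comparisons (0.112 after adjustment over the 9), and p = 0.3 for the keratin balance with JQ1.

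**Figure D4:**
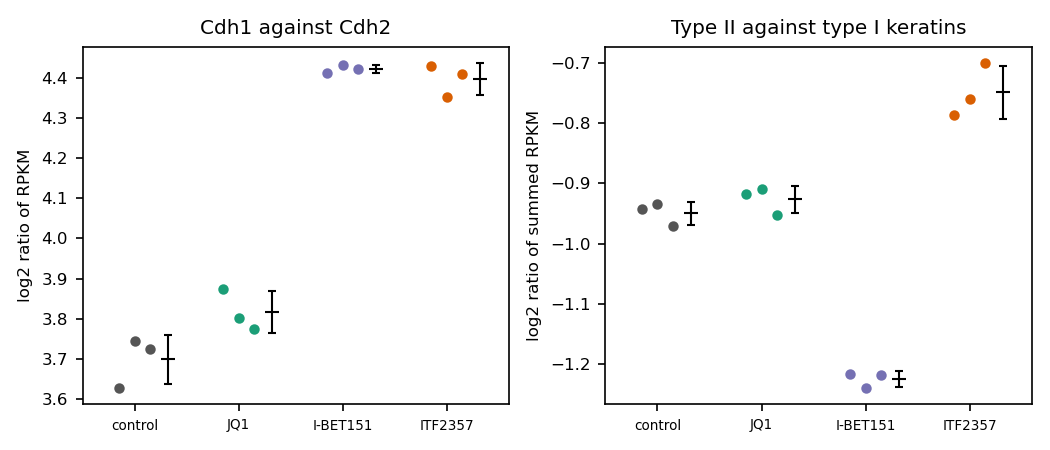
Log2 ratio of Cdh1 to Cdh2 RPKM (left) and of summed type II to type I keratin RPKM (right) in each library, with group mean and SD; the axes do not start at 0. The Cdh1 to Cdh2 ratio is near 4.42 with I-BET151 and 3.70 in control, and the keratin ratio is lowest with I-BET151 and highest with ITF2357.

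Other junction genes were read from fixed lists that do not hold the 9 members. The counts of this and the lists below stand beside these shares of all genes. Called higher and lower were 12.5% and 12.3% with JQ1, 30.5% and 32.6% with I-BET151, and 27.6% and 26.4% with ITF2357. No list was tested as a set. Of 15 adherens junction genes measured, 8 rose and 2 fell with JQ1, 10 rose and 3 fell with I-BET151 and 10 rose and 2 fell with ITF2357, with median log2 fold changes of 0.14, 0.31 and 0.26. Ctnnd1, p120-catenin, which holds cadherins at the surface, rose by 0.51 ± 0.03 (SE) with JQ1 and 0.57 ± 0.03 with ITF2357. Its level was highest with I-BET151, at 325 CPM beside 279 with JQ1 and 289 with ITF2357. Ctnnb1, β-catenin, rose by 0.90 ± 0.02 with I-BET151, close to the 0.94 of Cdh1, and Cdh3, P-cadherin, fell by 0.60 ± 0.06. Jup, plakoglobin, a catenin of both junction kinds, rose by 0.89 ± 0.03 with I-BET151 and 0.58 ± 0.03 with ITF2357, and Vcl, vinculin, rose by 0.32 ± 0.02 with JQ1. Pvr, an adhesion receptor of the nectin family, fell with all 3 compounds, by 0.13 ± 0.03, 0.69 ± 0.03 and 0.89 ± 0.03. Smaller falls were those of Afdn, afadin, by 0.06 ± 0.02 with JQ1 and of Nectin2 by 0.22 ± 0.05 with ITF2357. Afdn stood higher with I-BET151, at 585 CPM beside 453 with JQ1 and 483 with ITF2357. Of 10 desmosome genes 4 rose and none fell with JQ1, 7 rose and 2 fell with I-BET151 and 8 rose and 1 fell with ITF2357. Dsp, desmoplakin, the anchor of keratin filaments, rose by 0.95 ± 0.04 with I-BET151 and 1.16 ± 0.03 with ITF2357, while the plakophilin Pkp1 fell by 3.83 ± 0.15 with I-BET151 and 0.75 ± 0.10 with ITF2357. Pkp3 fell by 1.47 ± 0.36 with I-BET151. Ppl, periplakin, rose by 0.34 ± 0.05, 0.81 ± 0.05 and 0.89 ± 0.05 with JQ1, I-BET151 and ITF2357, and Pkp2 by 0.33 ± 0.04 with JQ1. Pkp2 stood higher with the other compounds, at 84.2 CPM with I-BET151 and 87.0 with ITF2357 beside 67.9 with JQ1.

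Among 17 other tight junction genes, 8 rose and 1 fell with JQ1, 13 rose and 2 fell with I-BET151 and 13 rose and 2 fell with ITF2357. Ocln, occludin, rose with each compound, by 0.41 ± 0.09 (SE), 1.32 ± 0.09 and 1.02 ± 0.09. Claudins did not move together: Cldn2, a pore-forming claudin, rose by 0.38 ± 0.03 with JQ1, whereas Cldn12 fell with all 3 compounds, by 0.17 ± 0.03 for JQ1, 0.67 ± 0.04 for I-BET151 and 0.41 ± 0.04 for ITF2357. Cldn3 fell by 0.96 ± 0.16 with I-BET151. The tricellulin gene Marveld2 rose by 1.15 ± 0.15 with I-BET151, its relative Marveld3 rose by 1.14 ± 0.18 with ITF2357, and Cxadr, a junctional adhesion receptor, fell by 0.33 ± 0.02 with ITF2357. Cxadr stood higher with the other compounds, at 906 CPM with I-BET151 and 728 with JQ1 beside 538 with ITF2357.

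Other keratins and filament genes were read beside the 5 keratin members. Of 15 measured, none rose and 11 fell with I-BET151, with a median log2 fold change of -1.50, beside 1 up and 4 down with JQ1 and 5 up and 4 down with ITF2357. Krt4, Krt10, Krt13, Krt14, Krt78 and Des were near the floor, from 0.042 CPM (Krt13) to 0.699 CPM (Krt10) with I-BET151. Low counts thus limit this median. Krt23, a type I keratin, fell from 44.8 ± 0.18 (SD) CPM in control to 24.9 ± 1.4 for JQ1, 2.34 ± 0.94 for I-BET151 and 7.08 ± 0.40 for ITF2357. Krt79 fell by 3.37 ± 0.21 (SE) with I-BET151 and rose by 1.00 ± 0.12 with ITF2357, and Krt80 fell by 0.29 ± 0.06 with JQ1. Krt80 was lower still with I-BET151, at 10.6 CPM beside 24.4 with JQ1 and 31.7 with ITF2357. Des, desmin of muscle, rose by 1.66 ± 0.23 from a low level with ITF2357, while Nes, nestin, fell by 0.59 ± 0.05 with the same compound. Nes was lower still with I-BET151, at 18.8 CPM beside 41.2 with ITF2357 and 61.8 with JQ1. Vim, vimentin, the mesenchymal filament gene, rose by 0.08 ± 0.02 with JQ1. With I-BET151 it fell by 0.46 ± 0.02, and with ITF2357 it rose by 0.21 ± 0.02, so Cdh1 and Vim both rose with ITF2357.

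Of 9 repressors of epithelial genes, 2 fell and 1 rose with JQ1, 7 fell and none rose with I-BET151 and 6 fell and 1 rose with ITF2357. Snai2, Slug, was at 42.03 ± 2.7 (SD) CPM in control, 26.4 ± 1.5 for JQ1, 14.3 ± 0.92 for I-BET151 and 14.0 ± 1.0 for ITF2357. Zeb2 was at 128 ± 1.2 CPM in control, 111 ± 3.4 for JQ1, 44.5 ± 1.6 for I-BET151 and 48.3 ± 0.72 for ITF2357. Zeb1 rose by 0.11 ± 0.03 (SE) with JQ1. Snai1, Snail, was lower in abundance, at 3.82 ± 0.17 (SD) CPM in control and 0.553 ± 0.19 CPM with I-BET151, a fall by 2.80 ± 0.26 (SE). Prrx1 fell by 3.37 ± 0.28 with I-BET151 and 2.04 ± 0.23 with ITF2357. The rise with ITF2357 was that of Snai3, by 1.02 ± 0.26, at 2.43 ± 0.40 (SD) CPM. With library totals as the scale all 9 were called lower with I-BET151. Binding of these repressors to the promoters shown above was not measured.

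Of 24 epithelial surface and splicing genes, 5 rose and 4 fell with JQ1, 15 rose and 5 fell with I-BET151 and 14 rose and 4 fell with ITF2357. Grhl3, a Grainyhead-like activator of epithelial genes, rose by 0.75 ± 0.18 (SE) with JQ1 and 2.28 ± 0.16 with I-BET151, and Elf3, an epithelial ETS factor, by 1.67 ± 0.07 with I-BET151. Mal2, of apical transport, rose by 0.76 ± 0.12 with JQ1 and 2.04 ± 0.11 with ITF2357, and Ehf, another ETS factor, by 1.98 ± 0.23 with ITF2357. Lad1, ladinin, fell by 1.07 ± 0.03 with I-BET151, and Pard3, a polarity gene, by 0.16 ± 0.03 with JQ1 and 0.65 ± 0.03 with ITF2357. Klf5 fell with all 3 compounds, by 0.14 ± 0.03, 0.44 ± 0.03 and 0.40 ± 0.03. As Cdh17 and Krt20 are known from the intestine, 18 other intestinal epithelial genes were read: 6 rose and 1 fell with JQ1, 9 rose and 6 fell with I-BET151 and 14 rose and 1 fell with ITF2357. Lgals4, an intestinal galectin, rose by 1.21 ± 0.04 with I-BET151 and 1.23 ± 0.04 with ITF2357, as Krt20 did and Cdh17 did not with I-BET151. Tm4sf4 rose by 0.40 ± 0.03 with JQ1. Ceacam1, an adhesion molecule, rose by 0.78 ± 0.23 with JQ1 and 1.97 ± 0.20 with ITF2357. Myo1a, a brush border myosin, fell by 0.93 ± 0.25 with JQ1, and Cdhr1 by 1.79 ± 0.31 and Gpa33 by 0.71 ± 0.17 with I-BET151. Cdx2, the intestinal factor known to activate Cdh17, was named after its values were seen, and was at 18.0 ± 0.64 (SD) CPM in control, 19.97 ± 1.4 for JQ1, 15.1 ± 0.93 for I-BET151 and 18.8 ± 0.58 for ITF2357. The part of Cdx2 in the changes of Cdh17 was not tested. With library totals as the scale, the I-BET151 split of the intestinal genes turned to 6 up and 8 down, the adherens junction genes gave 8 up and 4 down, and the tight junction genes 12 up and 2 down.

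**Figure D5:**
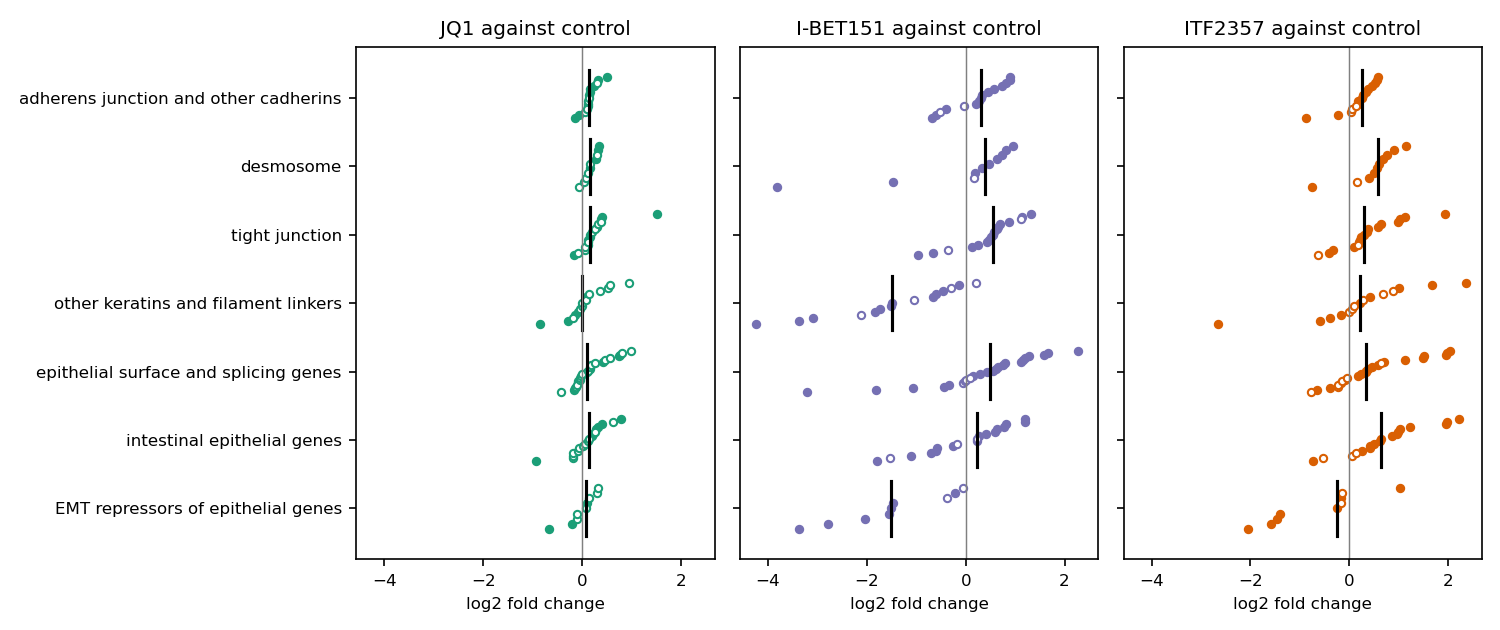
Log2 fold change against control of every measured gene in 7 fixed lists, 1 panel a compound; filled points passed an adjusted p of 0.05, open points did not, and black bars are list medians. With I-BET151 the median of the list of other keratins and filament genes lies at -1.50 and that of the repressors at -1.52. Those of the junction lists lie above 0. With library totals as the scale all I-BET151 values move left by 0.16.

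Genes with the pattern most like each member were taken by Pearson's r of log2 CPM over the 12 libraries, which fall into 4 treatment groups, so r mostly describes group levels and is given with no test. Closest to Cdh1 was Sptssb (r = 0.996), from 4.12 CPM in control to 29.1 CPM with I-BET151. Cdh17 was most like Galnt3 (r = 0.998), a glycosyltransferase gene at 40.8 CPM in control, 35.2 for JQ1, 12.8 for I-BET151 and 45.5 for ITF2357. Krt20 ran with S100a11 (r = 0.999), which went from 303 CPM in control to 665 CPM with ITF2357, and Krt19 with Ubqln2 (r = 0.997). Krt8 was most like Gsr, glutathione reductase (r = 0.993), and Krt18 most like Cfl1, cofilin (r = 0.982). Krt7 was most like Them6 (r = 0.994), and Epcam, with its low counts, most like Cetn2 (r = 0.932).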

How the data were processed

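RNA was sequenced from 12 libraries of KPC cells in 4 groups of 3. The submitters' processing notes list build mm10, edgeR 3.38.4, Subread 2.0.1 with featureCounts, STAR 2.7.2a and bcl2fastq. The authors deposited raw counts per gene and library, which were used here, with gene lengths. The log2 CPM, log2 RPKM and log2 fold changes and the p-values that the authors deposited in the same table were not used. No source gives the rule for keeping genes; the lowest total of a gene was 51 counts. Gene identifiers matched GENCODE M21, version included, for 17165 of 17340 genes (99.0%), and gene coordinates are from it.

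Counts were fitted with edgeR 4.0.16 in R 4.3.3 (TMM factors from 0.924 to 1.04, all libraries in 1 quasi-likelihood fit, no covariates, common biological coefficient of variation 3.37%), a procedure tested on simulated data. RPKM are CPM per kilobase of deposited length. Counts of each replicate pair differed by more than sampling noise (chi-square per degree of freedom 1.62 to 5.20). Libraries with the same number in different groups did not deviate together (r from -0.09 to 0.02). This gave no sign of pairing by number but cannot exclude it. Alternatives were RLE factors, library totals, no filter, a filter of 1 CPM in 3 libraries, 2-group fits, a replicate block, DESeq2 1.42.0, each library left out and other gene lengths, the last chosen after seeing the data.

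The members and lists were chosen with earlier results of these data known. Listed genes were named by rule: per compound the 2 largest called rises and 2 largest falls at mean log2 CPM 0 or more. A gene so named is given for the other compounds where that helps a comparison, and Cdh2 belongs to a ratio. Cdx2 falls outside the rule and was chosen after its values were seen. A few genes the rule names are not reported here. Like genes needed mean log2 CPM 2 or more, with a prior count of 2.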

Additional observations from a re-analysis of the deposited data

How the results depend on the processing

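The counts of all changed genes and of changed members, both directions together, stayed within 1.5 times and the ratios kept their direction in all 228 alternatives. Of 693 alternative values of single genes, 670 kept direction and call, 10 lost a call, 5 gained one and 8 turned sign. The fit with no filter is among these alternatives and could not differ from the main fit, because the filter removed 0 genes. Library totals as the scale moved the median of all genes by -0.16 for I-BET151 against control, by 0.15 for JQ1 against I-BET151 and by 0.14 for ITF2357 against I-BET151, and the higher share of calls went from 48.4% to 32.97%, from 50.7% to 68.9% and from 50.8% to 65.5%. With it, 1 member and not 3 passed 2-fold with I-BET151, and its members split into 4 higher and 2 lower, not 5 and 1. Malat1 took 7.11 to 7.33% of the counts in I-BET151 libraries and 2.63 to 2.69% in control. Under that scale the turned values were -0.11 for Krt18 in I-BET151 against control, 0.10 for Epcam, 0.0181 for Krt8 and 0.0125 for Krt18 in JQ1 against I-BET151, and 0.0692 for Cdh1 and 0.00086 for Krt19 in ITF2357 against I-BET151. Leaving out 1 library turned only Epcam in JQ1 against I-BET151, which ranged from -0.21 to 0.0645. For Cdh1 in ITF2357 against I-BET151, a fit of these 2 groups alone gave -0.05 (edgeR adjusted p = 0.0505). With the replicate number as a block, the replicate block fit called 6, 6 and 8 members for JQ1, I-BET151 and ITF2357 against control, as without it, and 4141, 10865 and 9247 genes in all. It changed no call of a member. Low counts limit Epcam and Cldn4. With 3 libraries a group, the exact tests of ratios cannot pass 0.05.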
